A study of Saccharomyces cerevisiae with 16 samples.

Results

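The promoters of 37 nuclear genes of the respiratory chain and the ATP synthase of budding yeast were followed through 16 libraries of transcription factor binding. A member's promoter was taken as the region between genes that lies upstream of it, that is, where the member is the left gene of a region and is read on the C strand, or is the right gene and is read on the W strand. By that rule 36 of the 37 genes had a promoter region, and ATP1, the alpha subunit of the ATP synthase head, had none. These 36 regions belong to 4740 regions listed in 15 of the tables, 3518 of which hold at least 1 promoter. The Gal4 table lists 4532 regions, of which 3366 hold a promoter.

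Binding was read with the calling-card assay in Saccharomyces cerevisiae, in which a factor joined to Sir4 steers the Ty5 retrotransposon to the DNA near which the factor sits. A plasmid carried the fusion under the constitutive ADH1 promoter, so the amount of factor is not that of its own gene, and another carried Ty5 under the inducible GAL1/10 promoter. All strains lacked SIR4. Each of the 12 factor libraries came from a BY4741 strain that also lacked the tagged factor's own gene, that is GAL4, LEU3, YRM1, YRR1, TEA1, LYS14, CAT8, CHA4, PUT3, URC2, HAL9 or ARO80.

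The Gal4 fusion was also profiled in 4 strains without SIR4, GAL4 and a further gene, titled △HMO1, △LEU3, △SEF1 and △YRM1. Their labels also name 4 different strains, from BY4742 for △HMO1 to BY4745 for △YRM1, so strain and deletion cannot be told apart. There was 1 library per group. No value therefore has a replicate error, intervals are 95% intervals that cover counting error only, and every test compares libraries and not conditions.

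All 12 factors are zinc cluster proteins. Gal4 switches on the galactose genes, Leu3 the genes of leucine synthesis and Lys14 those of lysine synthesis. Cat8 acts on genes for growth without fermentable sugar, Cha4 on serine and threonine breakdown, Put3 on proline use, Urc2 on uracil breakdown and Aro80 on aromatic amino acid breakdown. Yrm1 and Yrr1 regulate multidrug resistance genes, Hal9 takes part in salt tolerance, and Tea1 was found as an activator at the Ty1 enhancer.

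The respiratory chain passes electrons from NADH and succinate to oxygen across the inner mitochondrial membrane. Budding yeast has no proton-pumping complex I and uses small NADH dehydrogenases instead, followed by succinate dehydrogenase (complex II), the cytochrome bc1 complex (complex III), cytochrome c and cytochrome c oxidase (complex IV). The proton gradient made by complexes III and IV drives the ATP synthase. Transcription of many of these genes is held down by glucose and raised by the Hap2/3/4/5 complex and Hap1, which are not among the profiled factors.

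The factor libraries held 18295 (Cha4) to 36063 (Leu3) insertions and the libraries with a further deletion 6932 (△HMO1) to 13882 (△SEF1). An insertion is therefore worth 2.77 (Leu3) to 14.4 (△HMO1) per 100000. Each region's count was set against a background set of 84109 insertions in 15 tables and of 103922 in the Gal4 table. Fold means the region's share of the library over its share of the background. Calls needed a hypergeometric p-value of at most 0.001 in the authors' tables and at least 5 insertions. The library labelled △LEU3 stands apart from the other Gal4 libraries, since the shared promoter of GAL10 and GAL1, the best known Gal4 target, held 1 insertion there against 850 in Gal4, 206 in △HMO1, 282 in △SEF1 and 289 in △YRM1. Counts between genes do not show whether the labelled genes were deleted.

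The 36 member regions resembled other promoter regions in build. Their median length was 489 bp against 495 bp for all shared promoter regions, and their median background count was 12 against 8. The promoter of the neighbouring gene also lies in 12 of them (33.3%, against 34.8% of all), so for these an insertion cannot be assigned to the member. Further coding genes lie between the flanking genes in the regions of COX6, COR1, RIP1, ATP4, ATP14, ATP15, NDE2 and NDI1.

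Calls at the members were few. In the 12 factor libraries 14 of 432 pairs of member and library were called (3.24%), beside 2.02% of all pairs of promoter region and factor library. At least 1 factor library called 7 members (19.4%), beside 14.6% of the shared promoter regions. They were NDE1, SDH4, QCR6, CYT1, COR1, COX5A and ATP14. At least 3 factor libraries called 2 members, NDE1 and CYT1 (5.56%), beside 2.33% of the shared promoter regions. The other 29 members with a region were called in none of the 16 libraries. Both member shares rest on few regions, and no test was made of them.

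The rate of calls differed between libraries. In the Yrm1 library 3 of 36 members were called, where 3.1% of promoter regions were, and in Leu3 2 members, where 2.98% were. In Yrr1, Urc2 and Hal9 2 members each were called, where the rates were 2.3%, 1.39% and 2.7%. In Gal4, Tea1 and Aro80 1 member each was called, where the rates were 2.38%, 3.07% and 1.79%. In Lys14, Cat8, Cha4 and Put3 no member was called, where 1.36%, 1.79%, 0.711% and 0.654% of promoter regions were. With 36 regions, 1 called member is 2.78%, so counts of 0 or 1 lie near these rates. Among the deletion libraries, △SEF1 had 2 called members (rate 2.5%), △YRM1 1 (1.96%), and △HMO1 (1.65%) and △LEU3 (0.199%) none.

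**Figure D1:**
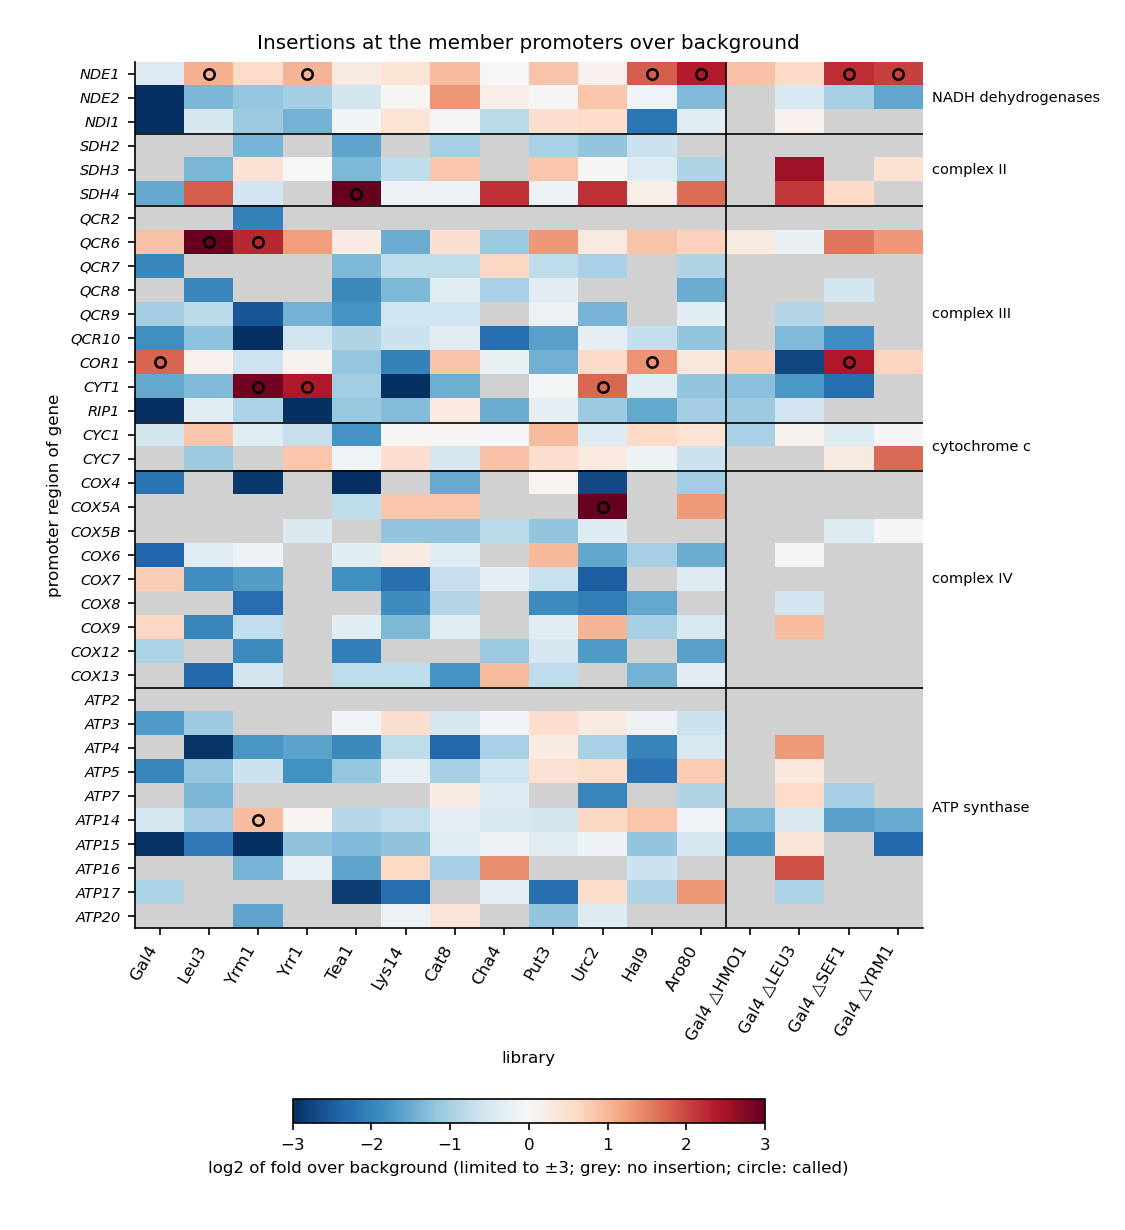
Log2 of the fold over background at the 36 member promoters (rows, by complex) in the 12 factor libraries and the 4 Gal4 libraries with a further deletion (columns), with the colour limited to 3 in either direction, grey for no insertion and a circle for a called pair. The 17 circles fall on 7 genes, and the rows of complex IV are mostly blue or grey.

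Each factor library was also compared with the other 11 together, for each region, by Fisher's exact test (two-sided), with Benjamini-Hochberg adjustment over all 29052 pairs tested. This comparison does not use the background sets. Of the 36 members 27 held enough insertions to be tested, in 324 pairs. In 19 pairs the member was higher (5.86%, beside 4.39% of all pairs tested) and in 18 it was lower (5.56%, beside 6.11%). An unadjusted p under 0.05 was found in 66 of the 324 pairs (20.4%, beside 18.7% of all pairs tested).

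NDE1 was the most widely used member promoter. It encodes an external NADH dehydrogenase, which oxidises cytosolic NADH on the outer face of the inner membrane, and its region on chromosome XIII (556475 to 557481) lies between NDE1 and TIF34 and holds no promoter of TIF34. Coordinates are as printed in the 15 tables (sacCer2 per the submitters' processing notes, though most edges equal R64 gene edges). The factor libraries held 25 insertions there in Gal4, 53 in Leu3, 32 in Yrm1, 40 in Yrr1, 30 in Tea1, 22 in Lys14, 32 in Cat8, 13 in Cha4, 30 in Put3, 21 in Urc2, 46 in Hal9 and 95 in Aro80. Aro80 and Hal9 stood above the rest, at 363 and 245 insertions per 100000, and the other 10 lay between 71.1 (Cha4) and 147 (Leu3).

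NDE1 was called in Aro80 with a fold of 5.17 (3.70 to 7.29), in Hal9 with 3.5 (2.33 to 5.23), in Leu3 with 2.10 (1.42 to 3.09) and in Yrr1 with 2.01 (1.31 to 3.06). Against the other 11 libraries, its share was 3.18 times as high in Aro80 (2.50 to 4.0; Fisher's exact test, adjusted p = 2.59e-17) and 1.93 times in Hal9 (1.39 to 2.62; adjusted p = 0.00181). The same test found it lower in Gal4, Tea1 and Urc2, at ratios of 0.527, 0.599 and 0.549. The lower values in Gal4 and Tea1 did not pass when insertions in called regions were left out of the totals.

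The background of this gene differs between the sets, with 59 of 84109 background insertions in 15 tables and 102 of 103922 in the Gal4 table. Its fold was above 1 in 11 of the 12 factor libraries and was 0.757 in Gal4, or 1.06 (0.636 to 1.72) there with the background set of the other 15 tables. Over the 12 libraries it gathered 439 insertions, the most of any member, and a pooled fold of 1.84 (1.67 to 2.02). Intervals of folds pooled over the 12 libraries are Poisson intervals that leave out the counting error of the background.

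The other NADH dehydrogenase genes were not called in any library. NDE2, the second external enzyme, shares its region with the promoter of LUC7 and held 2 (Gal4) to 17 (Cat8) insertions, with a median of 5.5 over the 12 libraries. The 17 in Cat8 were 3.42 times the share in the other libraries (1.88 to 5.92; Fisher's exact test, adjusted p = 0.000934), at a fold of 2.49 (1.25 to 4.83). Its authors' p of 0.00434 lay above the threshold of 0.001 for a call. NDI1, the internal enzyme that faces the matrix, shares its region with the promoter of NGL3 and held 1 (Gal4) to 19 (Urc2) insertions. The single insertion in Gal4, against 118 in the other 11 libraries, gave a ratio of 0.0740 (0.00186 to 0.420; Fisher's exact test, adjusted p = 0.000969).

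Pooled over the 3 genes, the fold ran from 0.426 in Gal4 to 2.82 (2.16 to 3.68) in Aro80, with a median of 1.29 over the factor libraries. The interval lay above 1 in 4 libraries and below 1 in Gal4. In Aro80 the pool rested on NDE1, and NDE2 and NDI1 alone gave 0.653 (0.330 to 1.2).

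In complex II the called member was SDH4, which encodes a membrane anchor of succinate dehydrogenase. Its region on chromosome IV (817525 to 817950) lies between UBC1 and SDH4. It held 14 insertions in Tea1, 6 in Leu3 and Urc2, 4 in Cha4 and Aro80, 1 in Gal4, Yrm1, Lys14, Cat8, Put3 and Hal9, and 0 in Yrr1. Tea1 held more than any other library, though on a small count.

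The fold in Tea1 was 8.25 (2.59 to 34.4), with a background of 4 insertions behind it. Tea1's share was 4.40 times that of the other libraries (2.12 to 8.74; Fisher's exact test, adjusted p = 0.000819). SDH3, the other anchor, held 0 to 3 insertions per factor library, and SDH2, the iron-sulfur subunit, 0 or 1. The largest count at SDH3 was 4 in the library labelled △LEU3.

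Complex III, with 9 of the 36 regions, held 7 of the 14 calls in the factor libraries, on 3 genes. Over all promoter regions 2.02% of pairs were called, and no test was made of this count. QCR6, an acidic subunit that neighbours cytochrome c1 in the complex, lies beside PHO4 on chromosome VI (224769 to 225020), in a region with no promoter of PHO4. It held 75 insertions in Leu3, 18 in Yrm1 and 8 or fewer in each of the other 10 factor libraries, down to 1 in Lys14 and Cha4. Leu3 stood alone, at 208 insertions per 100000 against 4.21 to 57.4 elsewhere.

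The fold at QCR6 was 17.5 in Leu3 (9.0 to 38.0) and 4.83 in Yrm1 (2.11 to 11.7), and these were its 2 calls. Leu3's share was 9.61 times that of the other 11 libraries (6.78 to 13.7; Fisher's exact test, adjusted p = 1.27e-33). The next region called in Leu3, PHO4/CDC26, begins 0.938 kb away on the far side of PHO4 and held 197 insertions. The part of that neighbouring signal in the QCR6 count was not tested. In Lys14 and Tea1 the share was lower than elsewhere, at ratios of 0.0931 and 0.307, with the Leu3 insertions among those compared against, and the value for Tea1 did not pass with called regions left out of the totals.

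CYT1 encodes cytochrome c1, the haem subunit that hands electrons to cytochrome c. Its region on chromosome XV (446738 to 447439) also holds the promoter of YNG1. The insertions numbered 81 in Yrm1, 52 in Yrr1, 31 in Urc2, 8 in Put3, 6 in Tea1, 5 in Leu3 and Hal9, 4 in Aro80, 3 in Cat8, 2 in Gal4, 1 in Lys14 and 0 in Cha4. The Yrm1, Yrr1 and Urc2 counts lay above those of the other 9.

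The folds at CYT1 were 7.49 in Yrm1 (4.85 to 11.9), 5.33 in Yrr1 (3.32 to 8.70) and 3.28 in Urc2 (1.91 to 5.63), and all 3 were calls. Against the other 11 libraries the ratios were 6.53 for Yrm1 (4.86 to 8.75; Fisher's exact test, adjusted p = 1.82e-29), 3.76 for Yrr1 (2.69 to 5.19; adjusted p = 1.03e-11) and 2.03 for Urc2 (1.34 to 2.99; adjusted p = 0.00945). The ratio for Urc2 did not pass when insertions in called regions were left out of the totals. In Gal4, Leu3, Tea1, Lys14, Cat8, Cha4 and Aro80 the region was lower than in the other libraries, which include Yrm1 and Yrr1. Apart from those 3 libraries, the fold at CYT1 stayed under 1, from 0 in Cha4 to 0.976 in Put3.

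COR1 encodes a core subunit of complex III, and its region on chromosome II (135516 to 136688) also holds the promoter of ECM13 and the short gene YBL044W. The factor libraries held 48 insertions in Gal4, 27 in Leu3, 14 in Yrm1, 21 in Yrr1, 11 in Tea1, 4 in Lys14, 30 in Cat8, 11 in Cha4, 6 in Put3, 28 in Urc2, 33 in Hal9 and 23 in Aro80. Per 100000 this was highest in Hal9 (176), Gal4 (143) and Cat8 (125), and lowest in Lys14 (16.8).

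COR1 was called in Gal4 at a fold of 3.37 (2.19 to 5.19), which was 2.07 (1.38 to 3.09) with the background set of the other 15 tables, and in Hal9 at 2.55 (1.61 to 3.98). These libraries held 2.01 times (1.44 to 2.77; Fisher's exact test, adjusted p = 0.000789) and 2.44 times (1.64 to 3.52; adjusted p = 0.000316) the share of the other 11. Lys14, Put3 and Tea1 were lower, at ratios of 0.203, 0.306 and 0.367. Cat8 missed a call at COR1 with a fold of 1.82 and an authors' p of 0.00686.

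The remaining 6 genes of complex III were not called. RIP1, the Rieske iron-sulfur protein, held 1 to 9 insertions per factor library in a region of 4937 bp that contains the gene YEL025C. QCR10 held 1 to 6 and QCR9 0 to 4, and QCR7 and QCR8 held 0 to 2 each. QCR2, the other core subunit, shares its region with the promoter of RPC82 and held 1 insertion in Yrm1 and none in the other 15 libraries. Over the 12 factor libraries this was a pooled fold of 0.0242 (0.000613 to 0.135), where 41.3 insertions would match the background share. The regions of the core subunits COR1 and QCR2 thus stood at 256 and 1 insertions, over 1172 and 340 bp. Both also hold a neighbour's promoter, so the insertions cannot be assigned to the core subunit genes.

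**Figure D2:**
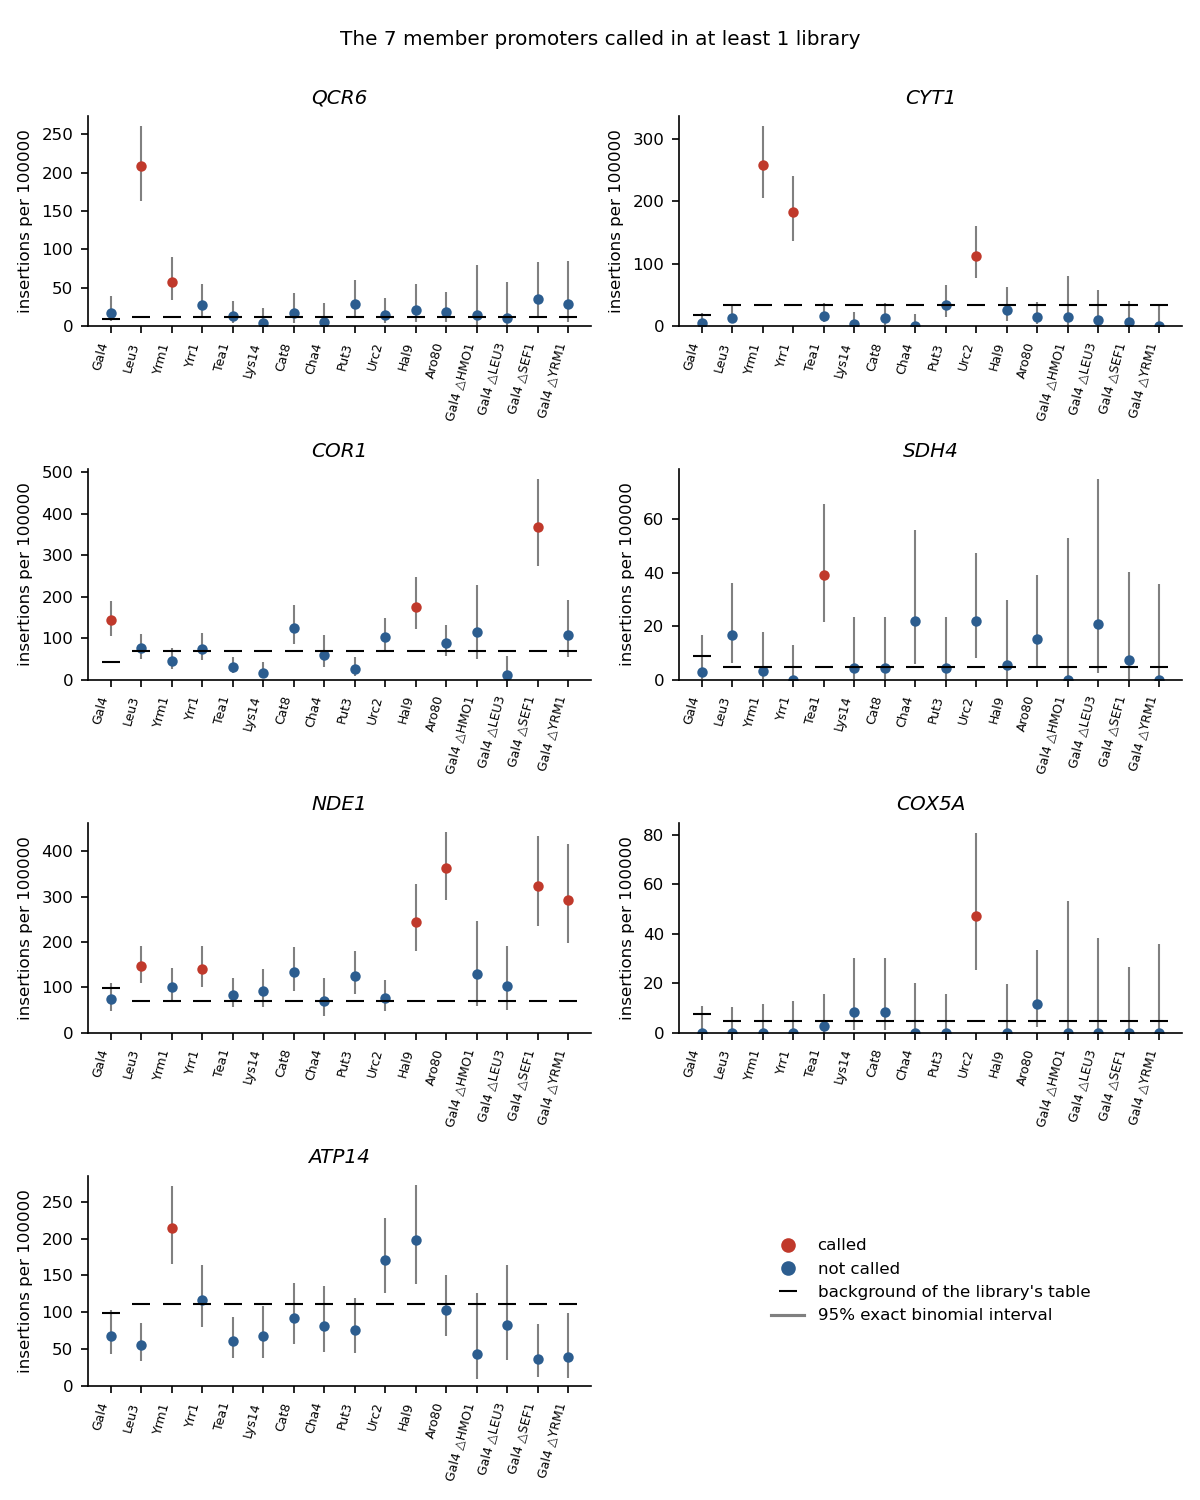
Insertions per 100000 with 95% exact binomial intervals (points and lines) at the 7 called member promoters in all 16 libraries, beside the background level of each library's own table (dashes) and with calls in red. QCR6 peaks in Leu3 at 208, CYT1 in Yrm1 at 258 and COX5A in Urc2 at 47.4, while NDE1 lies at or above its background dash in every library but Gal4.

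The cytochrome c genes drew insertions close to the background share. CYC1, the main isoform, shares its region with the promoter of ANB1 and held 3 (Tea1) to 18 (Leu3) insertions with a median of 7. Its pooled fold over the 12 libraries was 1.01 (0.818 to 1.23). CYC7, the minor isoform, held 0 to 3 per library. No library passed the adjusted Fisher's exact test at either gene, and no interval of the pooled pair left 1.

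Complex IV had the lowest median fold of the 6 groups. Its 9 promoters together gave a fold of 0.0582 in Yrr1, from 2 insertions, to 0.781 in Urc2 (0.487 to 1.21), with a median of 0.406. The interval lay below 1 in 10 of the 12 factor libraries and above 1 in none. In △HMO1 all 9 promoters held 0 insertions, where 83.85% of all promoter regions held none. The median fold of single promoter regions was itself low, from 0 in Gal4 to 0.885 in Put3, with a median of 0.44 over the factor libraries. Pooled over all promoter regions, the fold was 1.01 to 1.29.

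COX5A, which encodes the aerobic isoform of a subunit also made by COX5B, was the exception. Its region on chromosome XIV (531411 to 531725), beside MSG5, held 13 insertions in Urc2, 3 in Aro80, 2 in Lys14 and Cat8, 1 in Tea1, and 0 in the other 7 factor libraries and in the 4 deletion libraries. The 13 in Urc2 exceeded all others together, which came to 8.

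The Urc2 call at COX5A had a fold of 9.96 (3.08 to 41.9) over a background of 4 insertions, and Urc2's share was 17.7 times that of the other 11 libraries (6.82 to 49.4; Fisher's exact test, adjusted p = 3.14e-08). COX5B, the hypoxic isoform, held 0 to 2 insertions in every library, 2 of them in Urc2.

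At 2 further subunits a library differed from the rest on very small counts. COX4 held 6 insertions in Put3, 3 in Aro80, 2 in Cat8, 1 in Gal4, Yrm1, Tea1 and Urc2 and 0 in the other 5, and Put3's share was 8.51 times that of the others (2.49 to 26.8; Fisher's exact test, adjusted p = 0.00567). The fold in Put3 was 1.06, so this count equals the background share and the other libraries lie under it. COX13 held 5 insertions in Cha4 and 0 to 3 elsewhere, at a ratio of 5.28 (1.51 to 15.1; Fisher's exact test, adjusted p = 0.0498), which did not pass when insertions in called regions were left out of the totals. COX6, COX7, COX8, COX9 and COX12 showed no passing difference or were too sparse to test, with at most 7 insertions in any library.

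**Figure D3:**
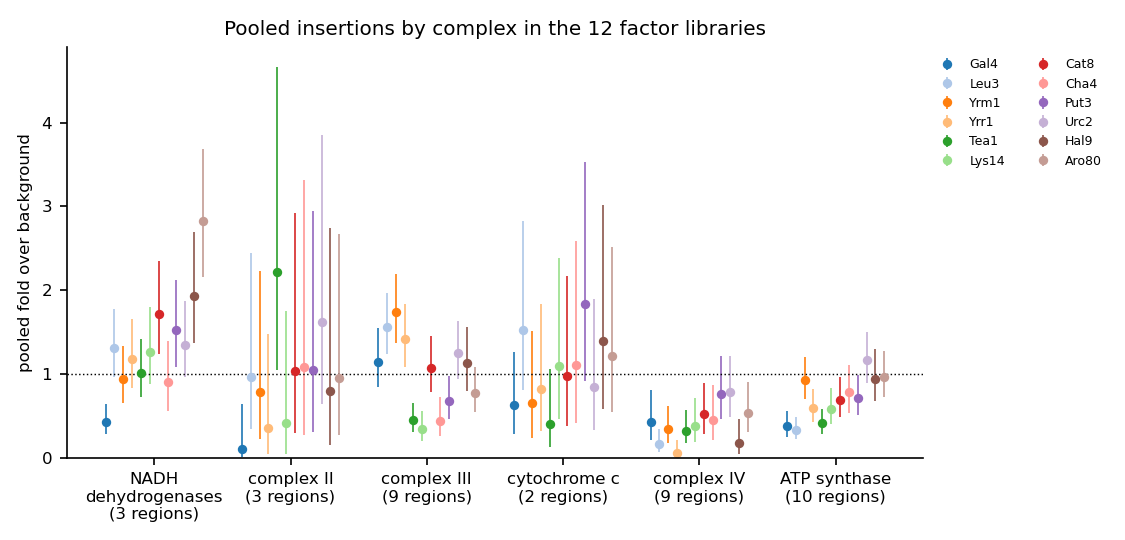
Pooled fold over background with 95% exact conditional binomial intervals for the promoters of each complex (groups on the horizontal axis) in the 12 factor libraries (colours). The NADH dehydrogenases reach 2.82 in Aro80, while complex IV stays at or under 0.781.

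The ATP synthase promoters gave pooled folds of 0.333 (Leu3) to 1.16 (Urc2; 0.895 to 1.5), with a median of 0.701. The interval lay below 1 in 7 factor libraries and above 1 in none. The single call was ATP14, which encodes subunit h of the peripheral stalk, in Yrm1. Its region on chromosome XII (722373 to 724721) runs 2348 bp to YHC1 and contains the genes YLR296W and YLR297W, so insertions there may lie far from ATP14.

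ATP14 held 67 insertions in Yrm1, 47 in Urc2, 37 in Hal9, 33 in Yrr1, 27 in Aro80, 23 in Gal4, 22 in Tea1 and Cat8, 20 in Leu3, 18 in Put3, 16 in Lys14 and 15 in Cha4. Yrm1, Hal9 and Urc2 were highest per 100000, at 214, 197 and 171, and Yrr1 followed at 117.

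The Yrm1 call at ATP14 had a fold of 1.91 (1.38 to 2.64). Against the other 11 libraries the ratio was 2.26 for Yrm1 (1.70 to 2.96; Fisher's exact test, adjusted p = 1e-06), 1.96 for Hal9 (1.36 to 2.77; adjusted p = 0.00420) and 1.71 for Urc2 (1.23 to 2.33; adjusted p = 0.0153). Leu3 and Tea1 were lower, at 0.494 and 0.553. The values for Urc2 and Tea1 did not pass when insertions in called regions were left out of the totals.

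ATP17, subunit f of the membrane part, held 13 insertions in Aro80, 8 in Urc2, 3 in Cha4, 2 in Gal4 and Hal9, 1 in Tea1, Lys14 and Put3 and 0 in Leu3, Yrm1, Yrr1 and Cat8. Aro80's share was 8.31 times that of the other libraries (3.74 to 17.9; Fisher's exact test, adjusted p = 6.46e-06) and Urc2's 3.80 times (1.47 to 8.80; adjusted p = 0.0347), and the latter did not pass with called regions left out of the totals. Neither was a call against the background. ATP17 lies near strong Aro80 regions, with LSM6/RGA2 at 0.998 kb holding 47 Aro80 insertions, and the promoter shared by YDR379C-A and ARO10, the main Aro80 target, at 4.91 kb holding 1826. In Urc2 that same shared promoter held 15 insertions and was the nearest called region. The part of these neighbours in the ATP17 counts was not tested.

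ATP16, the delta subunit of the head, held 4 insertions in Cha4 and 0 to 3 in the other factor libraries (ratio 7.51, 1.69 to 26.9; Fisher's exact test, adjusted p = 0.0451), which did not pass with called regions left out of the totals. ATP3, ATP4, ATP5, ATP7, ATP15 and ATP20 were not called and passed no Fisher's exact test. ATP5 reached 11 insertions in Aro80 and ATP15 12 in Urc2, and the other 4 reached at most 6. ATP7 shares its region with the promoter of PUT3 and held 0 insertions in 7 of the 12 factor libraries, Put3 among them. With a background of 12 insertions, the Put3 ratio to the other libraries had an upper limit of 5.09, so this 0 tells little. ATP2, the beta subunit of the head, held 0 in all 16 libraries, but its region of 131 bp has a background of 1 or 2 insertions. The upper Poisson limit of its pooled fold, 0.892, takes that background as exact. With the error of the background included, the interval in Gal4 over the background set of the other 15 tables reached 97.5. Neither depletion nor enrichment at ATP2 can therefore be told.

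Ordered by pooled fold over the 12 factor libraries, the highest members were QCR6 at 3.62 (3.04 to 4.27), SDH4 at 2.37 (1.69 to 3.23), CYT1 at 1.85 (1.60 to 2.13), NDE1 at 1.84 and COX5A at 1.27 (0.785 to 1.94). A single library supplied 54.3% of the insertions at QCR6 (Leu3), 61.9% at COX5A (Urc2) and 40.9% at CYT1 (Yrm1), but 21.6% at NDE1 (Aro80). The lowest were ATP2, QCR2, COX8 at 0.149 (0.0599 to 0.307), COX4 at 0.202 (0.113 to 0.333) and COX12 at 0.217 (0.0937 to 0.428). Neighbours at either end of this order had overlapping intervals. That of QCR6 lay above those of CYT1 and NDE1, but these intervals take the background count as exact. The background in 15 tables was 10 insertions at QCR6, 4 at SDH4, 29 at CYT1 and 59 at NDE1, so their order is not settled. The pooled fold was above 1 for 7 of the 36 members (19.4%), beside 23.3% of shared promoter regions with background, and the medians were 0.494 and 0.591.

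All member promoters together held 101 (Cha4) to 266 (Yrm1) insertions in the factor libraries. The pooled fold was lowest in Tea1 at 0.563 (0.472 to 0.669) and Gal4 at 0.568 (0.472 to 0.680), and highest in Aro80 at 1.19 (1.03 to 1.38), Urc2 at 1.16 (1.0 to 1.34), Hal9 at 1.07 (0.898 to 1.27) and Yrm1 at 1.05 (0.905 to 1.21). The other 6 libraries lay between 0.628 in Lys14 and 0.974 in Cat8. With called regions left out of library and background, Tea1 stood at 0.885 and Gal4 at 0.696, so Tea1 then lay above Gal4. Pooled over all promoter regions, the fold was 1.01 (Gal4) to 1.29 (Hal9).

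The pooled values above 1 rested largely on a few genes. Without its region with most insertions, Aro80 fell to 0.815 (0.680 to 0.972), Yrm1 to 0.760 and Hal9 to 0.843, while Urc2 remained at 1.10. The number of members without any insertion ran from 4 in Cat8 (11.1%, beside 27.1% of all promoter regions) to 18 in Yrr1 (50%, beside 42.0%).

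Insertions were also counted in the 37 regions on the other side of the members, 16 of which hold no promoter of any gene (18 in the Gal4 table). In Yrm1 the promoter side gave 1.05 and the other side 0.444 (0.316 to 0.610), in Aro80 1.19 and 0.390 (0.263 to 0.561), and in Yrr1 0.849 and 0.382 (0.261 to 0.545). In Gal4 the values were 0.568 and 0.217. In Leu3, Tea1, Cat8, Put3, Urc2 and Hal9 the intervals of both sides overlapped, with 0.886 and 0.609 in Leu3, 0.563 and 0.451 in Tea1, 0.974 and 0.930 in Cat8 and 0.913 and 0.911 in Put3. In Lys14 and Cha4 the other side was at 0.741 and 0.794, above the promoter side at 0.628 and 0.681, with overlapping intervals. In the regions that hold no promoter of any gene the fold was 0.0865 (0.0103 to 0.326) in Yrm1 and 1.54 (0.943 to 2.46) in Put3, on 2 and 27 insertions. The 1 call on the other side was the region of QCR2 and AQY1 in Hal9, which holds the promoter of AQY1. It was 1 of 37 regions, where 2.05% of all regions were called in Hal9.

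**Figure D4:**
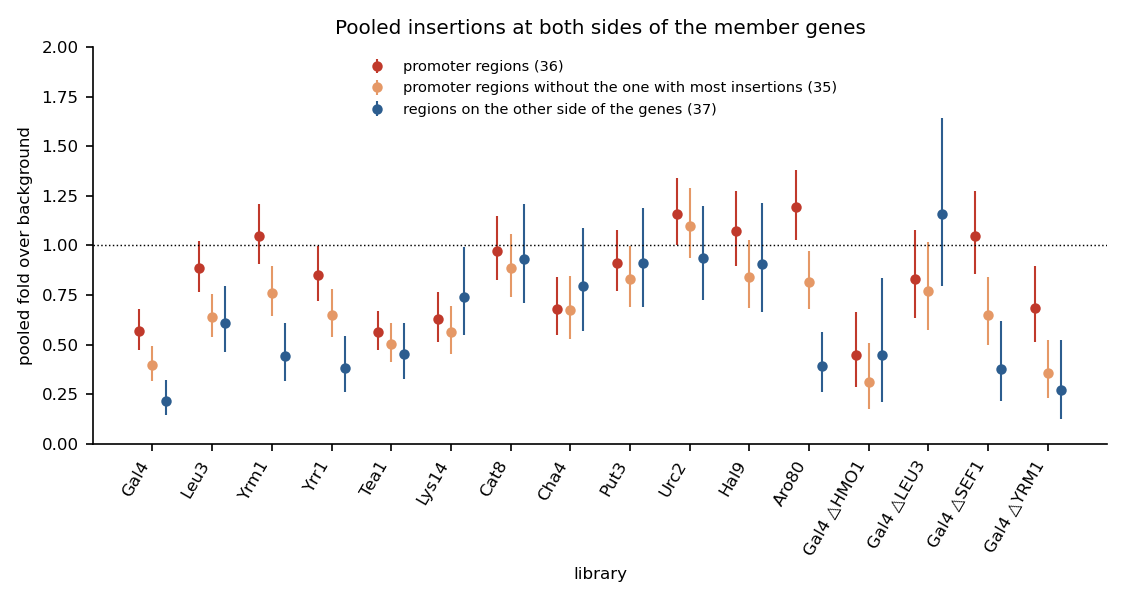
Pooled fold over background with 95% exact conditional binomial intervals in each library for the 36 member promoters, for the same without the promoter with most insertions, and for the 37 regions on the other side of the members. The intervals of promoter and other side do not overlap in Gal4, Yrm1, Yrr1, Aro80 and △SEF1.

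The Gal4 libraries with a further deletion address whether Gal4 binding changes in their absence, and all 4 were compared with the same Gal4 library. A region was tested from 10 insertions on, summed over both libraries, which left 4 members in △HMO1, △LEU3 and △YRM1 and 5 in △SEF1. NDE1, COR1, ATP14 and CYC1 were tested in each of them. Over all regions tested, the median log2 ratio to Gal4 was 0.02 in △HMO1, 0.67 in △LEU3, 0.26 in △SEF1 and 0.05 in △YRM1.

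NDE1 held 25 insertions in Gal4, 9 in △HMO1, 10 in △LEU3, 45 in △SEF1 and 30 in △YRM1, which is 74.3, 130, 104, 324 and 292 per 100000. △SEF1 and △YRM1 stood above the other 3 libraries. NDE1 was called in both, at folds of 4.62 (3.06 to 6.93) and 4.16 (2.59 to 6.56).

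In △SEF1, 2 of 5 members tested were higher than in Gal4, where 11.1% of all regions tested were higher and 3.97% lower. NDE1 was 4.36 times as high (2.62 to 7.42; Fisher's exact test, adjusted p = 5.52e-08). COR1 was 2.58 times as high (1.70 to 3.90; Fisher's exact test, adjusted p = 5.47e-05), with 51 insertions against 48 in a larger library, and its fold over background was 5.33 (3.58 to 7.90). In △YRM1, 1 of 4 was higher, NDE1 at 3.93 times (2.23 to 6.96; Fisher's exact test, adjusted p = 2.64e-05), where 7.39% of regions were higher and 4.35% lower. COR1 in △YRM1 held 11 insertions, a ratio of 0.750 (0.351 to 1.47; Fisher's exact test, adjusted p = 0.786).

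In △LEU3 1 of 4 members was lower and none higher, where 20.7% and 29.6% of all regions tested were. This was COR1, with 1 insertion against 48 (ratio 0.0728, 0.00181 to 0.426; Fisher's exact test, adjusted p = 0.000440). The △LEU3 library also held 1 insertion against 850 at GAL10/GAL1 and 6 against 876 at HAP4, so the low count is not particular to COR1. NDE1 there was at 1.40 times the Gal4 share (0.599 to 3.01; Fisher's exact test, adjusted p = 0.521), and at 0.813 with called regions left out of the totals. In △HMO1 none of 4 passed, and none had an unadjusted p under 0.05, where 6.79% of regions were higher and 1.36% lower. NDE1 in △HMO1 was at 1.75 times the Gal4 share (0.718 to 3.87; Fisher's exact test, adjusted p = 0.546), an interval that reaches from below 1 to just under the ratio of 3.93 in △YRM1.

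ATP14 passed in none of the 4 comparisons, at 68.4 per 100000 in Gal4, 43.3 in △HMO1, 83.1 in △LEU3, 36 in △SEF1 and 38.9 in △YRM1. Pooled over the 36 members, the share relative to Gal4 was 0.855 (0.535 to 1.31) in △HMO1, 1.60 (1.17 to 2.16) in △LEU3, 2.01 (1.56 to 2.59) in △SEF1 and 1.31 (0.949 to 1.80) in △YRM1. Leaving out COR1 and NDE1 kept 69 of 142 insertions in Gal4. In the deletion libraries it kept 8 of 25 in △HMO1, 54 of 65 in △LEU3, 22 of 118 in △SEF1 and 16 of 57 in △YRM1. Without both, the shares were, in the same order, 0.563 (0.234 to 1.17), 2.73 (1.88 to 3.96), 0.773 (0.455 to 1.26) and 0.759 (0.411 to 1.32), so that of △SEF1 turned to below 1 with an interval that holds 1. In △HMO1, △SEF1 and △YRM1, 28, 23 and 26 of the 36 members held no insertion, against 14 in Gal4 and 14 in △LEU3, at lower depth than Gal4 in all 4. In the same order these were 77.8%, 63.9%, 72.2%, 38.9% and 38.9% of members. Of all promoter regions, 83.85%, 74.3%, 79.7%, 58.1% and 39.97% held none, so the members were empty no more often than promoters in general. The members' median background count was higher, at 12 against 8, which this comparison does not take into account.

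**Figure D5:**
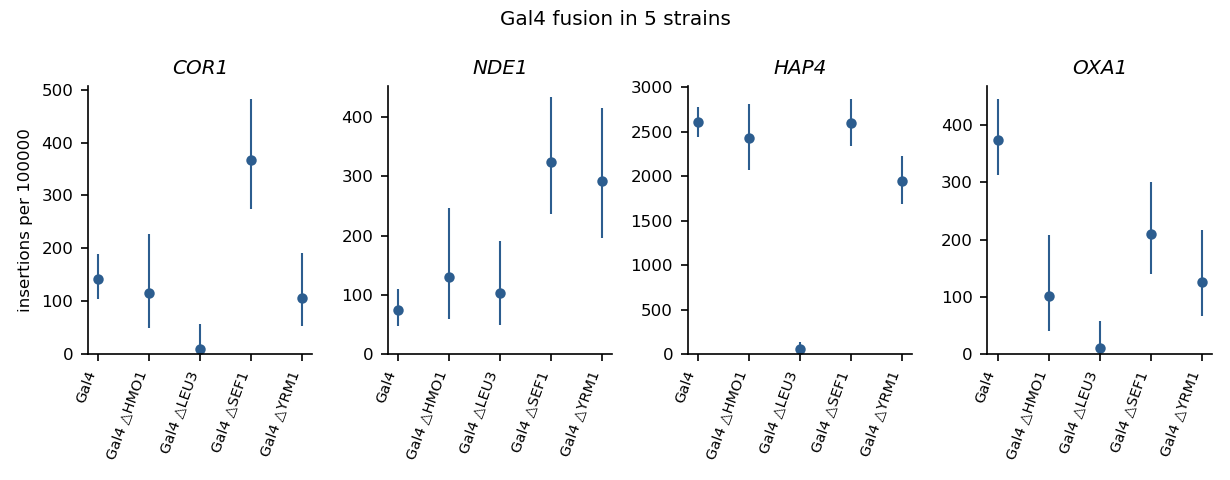
Insertions per 100000 with 95% exact binomial intervals at 2 member promoters (COR1 and NDE1) and 2 promoters of related genes (HAP4 and OXA1) in the Gal4 library and the 4 Gal4 libraries with a further deletion. HAP4 stays between 1946 and 2604 outside △LEU3, whereas NDE1 runs from 74.3 in Gal4 to 324 in △SEF1.

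Genes around the chain were read in the same way. Among 14 further subunits of the chain and related dehydrogenases, 3 of 144 pairs were called in the factor libraries (2.08%). INH1, the inhibitor of ATP hydrolysis by the ATP synthase, held 91 insertions in Lys14 (10.4-fold, 6.84 to 16.1) and 4 to 21 in the other factor libraries. Its region lies behind LYS20, a lysine synthesis gene, and holds no promoter of LYS20. SDH1, the flavoprotein subunit of complex II, held 32 insertions in Cat8 (3.12-fold, 1.88 to 5.17), and DLD1, a D-lactate dehydrogenase that feeds cytochrome c, held 18 there (4.22-fold, 2.01 to 8.99). Each of these Cat8 regions also holds the neighbour's promoter.

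Of the 39 assembly factors with a promoter region, 7 were called in 8 of 463 pairs (1.73%). OXA1, which inserts subunits into the inner membrane, held 126 insertions in Gal4 (25.9-fold), in a region shared with the promoter of PET122, a translational activator for COX3. It was also called in △HMO1, △SEF1 and △YRM1 at 9.44, 19.5 and 11.8-fold, and held 1 insertion in △LEU3. CYC3, the haem lyase of cytochrome c, was called in Gal4 with 172 (4.18-fold) beside the promoter of CDC19. SCO1, a copper carrier for complex IV, was called in Yrr1 with 35 (10.4-fold), ATP25 in Tea1 with 21 (8.25-fold), and BCS1, which inserts the Rieske protein, and COX23 in Aro80 with 18 and 9. SDH6, at the promoter shared with ARO10, was called in Aro80 with 1826 insertions and in Urc2 with 15. The BCS1 region (chromosome IV, 1226536 to 1226822) lies in the same stretch as ATP17 and that promoter (1233517 to 1234218). The part of these neighbours in the Aro80 count at BCS1 was not tested. CYT2, the haem lyase of cytochrome c1, and RCF2 were called in △SEF1 and △YRM1, with 8 and 7 insertions at CYT2 and 21 and 20 at RCF2. At CYT2 this was 57.6 and 68.1 per 100000 over a background of 7. Gal4 held 12 insertions there (35.7 per 100000) and was not called over the background of 24 in its own table. No Gal4 value was available for RCF2. The regions of SCO1, BCS1, COX23 and CYT2 also hold the promoters of CHS2, ARH1, DMA1 and SRX1.

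None of the 120 pairs for ubiquinone synthesis genes was called. Carriers of the inner membrane were called in 14 of 156 pairs (8.97%), and regulators of respiration in 15 of 192 (7.81%), both beside 2.02% of all promoter pairs. These calls fell on 9 of 13 carrier genes and 5 of 16 regulator genes, and several libraries called the same gene. The lists were chosen with earlier results of these data known. Both shares are therefore descriptions only, and no test was made of them. Among the carriers, the ADP/ATP carrier gene AAC1 held 72 insertions in Leu3 (9.33-fold) and 31 in Gal4 (4.35-fold), in a region shared with the promoter of FET3. The oxodicarboxylate carrier genes were called in 5 pairs, ODC1 in Yrm1 (25), Yrr1 (29) and Cat8 (25), and ODC2 in Tea1 (139) and Lys14 (20). CTP1, the citrate carrier, held 68 in Lys14, and YHM2, a citrate and oxoglutarate carrier, held 38. The most used carrier promoters were those of PET9 (692 insertions), DIC1 (425) and OAC1 (314) in Leu3 and of SFC1 (584) in Cat8, at 18.8, 19.8, 18.8 and 93.3-fold, and PET9 was also called in Hal9 with 39. The regions of DIC1, OAC1, CTP1, YHM2 and ODC2 also hold the neighbour's promoter.

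Among the regulators, HAP4, the activating subunit of the Hap complex, shares its region with the promoter of KTI12, and that region held 876 insertions in Gal4, 100 in Tea1 and 52 in Hal9, at 21.8, 2.43 and 2.41-fold. ADR1, an activator of genes for ethanol and fatty acid use, was called in Gal4 (267 insertions, 17.6-fold), Hal9 (161, 17.2-fold), Leu3 (108, 6.0-fold), Aro80 (48, 3.67-fold) and Cat8 (47, 3.93-fold). HAP1, the haem-responsive activator, was called in Hal9 with 32 (3.06-fold), PIP2, an activator of peroxisomal genes, in Tea1 with 96 (8.38-fold), and MOT3 in 5 factor libraries, with up to 294 insertions in Leu3. The regions of HAP1 and PIP2 also hold the promoters of NDL1 and SCP1.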

How the data were processed

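Calling-card insertions were profiled in 16 libraries, 1 per group, with groups taken from the labels. The authors deposited, per region between genes, insertion counts of the library and of a background set, the fraction that each count makes up, and hypergeometric and Poisson p-values, per the file headers. Novoalign and sacCer2 are named in the submitters' processing notes without versions. Region ends coincide with a gene edge of the R64 assembly for 99.9% of the ends in 15 tables and 28.3% in the Gal4 table, so coordinates are printed as in the 15 tables, unconverted and with no certain build. The deposited hypergeometric p was recomputed from the counts to within 3.26e-08.

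Here, folds were computed as shares of all insertions with exact conditional binomial intervals, pooled values over the 12 libraries with Poisson intervals, and two-sided Fisher's exact tests over all 4383 shared regions with at least 10 insertions, at an adjusted p of 0.05, with Python 3.11.15, numpy 2.4.6, pandas 2.3.3 and scipy 1.17.1 (figures: matplotlib 3.10.9). The Poisson intervals take the background count as exact. The Fisher step was tested on simulated data. Members, lists and rules were chosen with earlier results of these data known. Named with values were members that were called or passed a Fisher test, the 5 highest and 5 lowest by pooled fold, and called genes of the other lists. Insertions were recovered by PCR after 3 digests without molecular tags, so intervals cover counting error only. Binding-site sequences were not analysed here.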

Additional observations from a re-analysis of the deposited data

How the results depend on the processing

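Under 7 alternatives for the calls the 17 called pairs became 16 with a p of 0.0001 (NDE1 in Yrr1 was lost), 22 with a p of 0.01, 21 with the Poisson p and 17 with the others, and all other calls were kept. The pooled folds moved beyond their intervals as follows, and the cause was not tested. Without the member region with most insertions they were 0.399 in Gal4, 0.639 in Leu3, 0.760 in Yrm1, 0.651 in Yrr1, 0.843 in Hal9, 0.815 in Aro80, 0.651 in △SEF1 and 0.355 in △YRM1. With called regions left out of the library and the background they were 0.696 in Gal4, 0.744 in Leu3, 0.889 in Yrm1, 1.02 in Yrr1, 0.885 in Tea1, 0.818 in Lys14, 1.17 in Cat8, 0.920 in Cha4, 0.817 in △HMO1 and 0.422 in △SEF1. Without regions that also hold another gene's promoter they were 0.898 in Yrm1, 0.694 in Yrr1, 0.997 in Urc2, 1.39 in Aro80 and 0.843 in △SEF1. As shares of insertions between genes they were 0.893 in Yrm1, 0.678 in Yrr1, 0.461 in Tea1 and 0.874 in Hal9. Without regions that contain a further gene, an alternative chosen after seeing the data, they were 1.12 in Leu3 and 1.49 in Aro80. The other 52 of 81 alternatives for pooled folds stayed within their intervals.

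Against the other 11 libraries, a minimum of 30 insertions left ATP16, COX4, COX13 and COX5A too sparse to test, and 19 pairs were higher and 21 lower. With called regions left out of the totals 14 were higher and 17 lower. In the deletion comparisons the 4 passing pairs, of COR1 and NDE1, passed under both alternatives. Without COR1 and NDE1, an alternative chosen after seeing the data, the members' pooled share relative to Gal4 turned to 0.773 in △SEF1 and was 0.759 in △YRM1 and 2.73 in △LEU3.

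No paired analysis was possible because each group has 1 library, and no replicate was left out for the same reason. At this depth 1 insertion is worth 2.77 to 14.4 per 100000, so regions with few background insertions, such as ATP2, carry wide intervals.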
